A study of Sus scrofa with 8 samples.

Results

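The heart and lateral mesoderm genes described here are 9 genes picked by symbol in the deposited pig (Sus scrofa) table of 25578 genes, where each symbol has a single entry. They are the natriuretic peptides NPPA and NPPB, the sarcomere genes MYH6 and ACTC1, and the heart factors MEF2C, TBX20, NKX2-5, HAND1 and HAND2. Messenger RNA was sequenced at 4 stages of a culture that is led from pluripotency towards lung, with 2 libraries for each. PSC are the pluripotent stem cells at the start, DE is the definitive endoderm made from them, AFE stands for anterior foregut endoderm, and LPO are the organoids of lung progenitors. The labels give no strain, sex, day, medium or genetic change for any stage, and do not say that libraries of the same stage are separate cultures. The p-values therefore rest on the spread within these pairs of libraries, and that spread may be technical.

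The heart forms from lateral plate mesoderm that lies against the foregut endoderm, and the tissues exchange signals while both are being patterned. NKX2-5, TBX20, HAND1, HAND2 and MEF2C are transcription factors that act together with GATA factors in heart progenitors. Their best known targets include the sarcomere genes and the natriuretic peptides, hormones that embryonic heart chambers secrete and that lower blood pressure in the adult. Several of these factors also work outside the heart: HAND1 in trophoblast, HAND2 in limb and visceral mesoderm, MEF2C in endothelium, neurons and muscle, and GATA4 and GATA6 in endoderm itself.

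Deposited counts summed to 61748702 to 67566269 in the DE, AFE and LPO libraries and to 36004372 and 42251431 in the PSC libraries. Low counts gathered at 4, 8 and 12, which held 46.4% to 50.7% of the values from 1 to 12 in a library. A read pair is therefore taken as about 4 counts. The other low values do not fall on this unit, so it is approximate. The floor, bounds and counting intervals rest on it. On this unit the depth was about 9001093 to 16891567 read pairs per library. The floor used here for a gene at 0 is 3 read pairs (12 counts) in a library, which is 0.150 to 0.210 counts per 1000000 (CPM) in the later stages and 0.298 and 0.357 CPM in PSC. Summed stage markers were highest at the labelled stage for PSC, DE and LPO but not for AFE. The summed level of POU5F1, NANOG and SOX2 was 4505 and 5205 CPM in PSC, against at most 393 CPM in any other library. POU5F1 made up most of it (4805 CPM), and SOX2 was higher in LPO (30.5 CPM) than in PSC (5.26 CPM). That of SOX17, FOXA2, GATA6 and CXCR4 was 670 and 700 CPM in DE, though CXCR4 alone had 34.8 CPM in AFE and 26.5 CPM in DE, and that of NKX2-1, SOX9, SFTPC and SCGB3A2 was 189 and 200 CPM in LPO. The AFE list of FOXA2, SOX2, TBX1 and PAX9 summed to 106 and 116 CPM in AFE, below the 296 and 300 CPM it had in DE. FOXA2 set that order, with 91.9 CPM in AFE and 294 CPM in DE. The means of SOX2 (5.98 and 0.0956 CPM), TBX1 (11.2 and 3.33 CPM) and PAX9 (1.86 and 0.148 CPM) were higher in AFE than in DE. The surfactant gene SFTPC reached only 0.351 ± 0.126 CPM in LPO (SD, n = 2).

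All 9 genes passed the filter on low counts, but NPPA and NPPB passed through DE alone, and TBX20, HAND1 and HAND2 lay below the filter level in PSC. Of the 9 genes, 5 had their highest mean in DE (NPPA, NPPB, TBX20, NKX2-5 and HAND1), 2 in LPO (MEF2C and HAND2), 1 in AFE (MYH6) and 1 in PSC (ACTC1). Over the 19346 genes tested, 16.8% were highest in DE, 38.4% in LPO, 18.4% in AFE and 26.5% in PSC. A quasi-likelihood F test in edgeR over the 4 stages called each of the 9 (adjusted p of 2.2e-07 to 5.5e-04), and it called 79.2% of all genes tested.

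**Figure D1:**
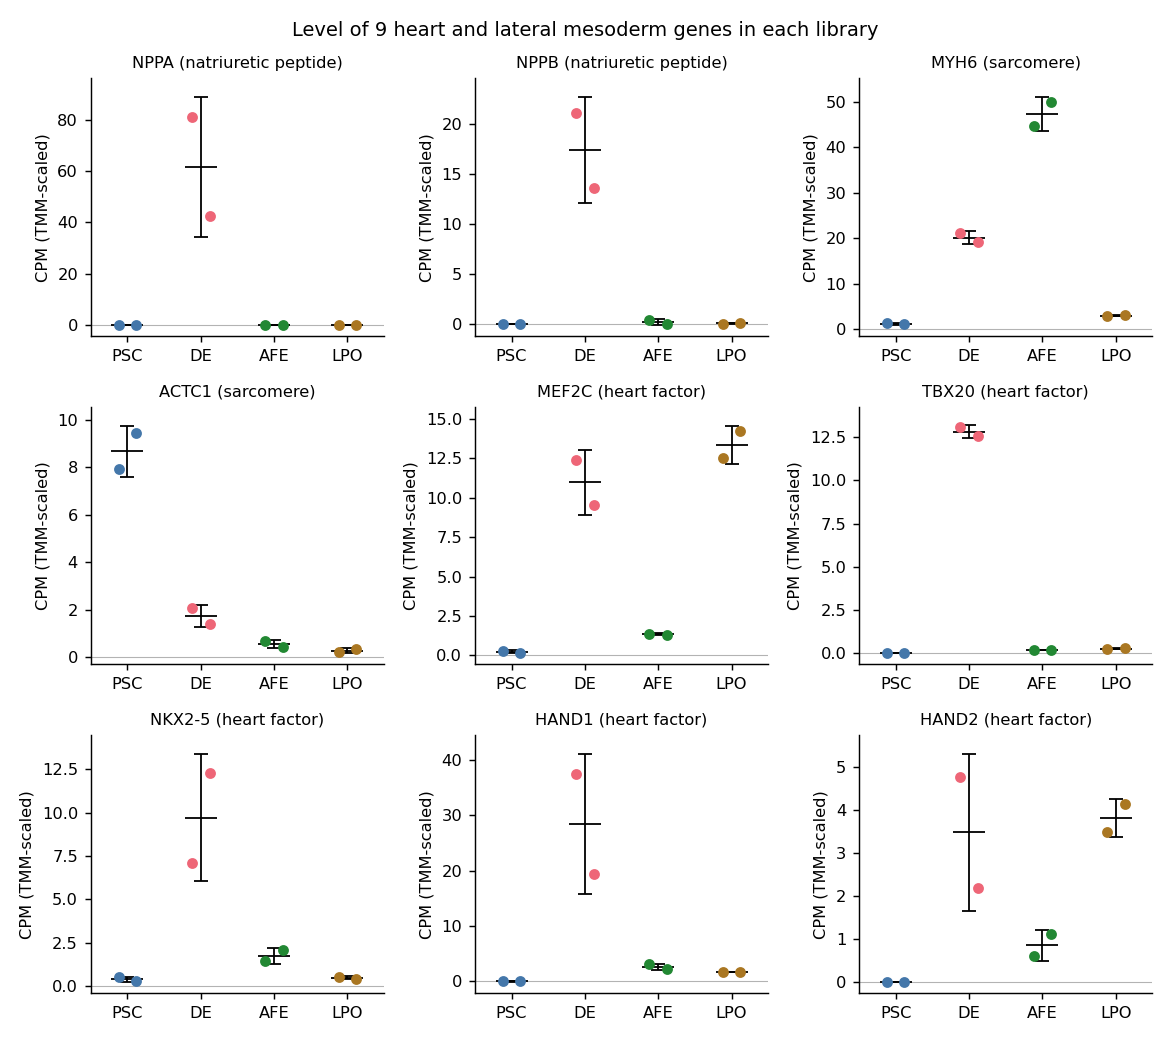
Level of each of the 9 genes in every library, in CPM after TMM scaling (y axis, linear, a different range per panel) by stage (x axis). Points are libraries, horizontal bars the mean and whiskers 1 SD (n = 2). NPPA, NPPB, TBX20, NKX2-5 and HAND1 stand highest in DE, MYH6 in AFE, MEF2C and HAND2 in LPO, and ACTC1 in PSC.

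The natriuretic peptides were detected at DE and were at or near 0 in the other stages. NPPA encodes atrial natriuretic peptide. Its deposited counts were 4692 and 2423 in the DE libraries, with 0 in each of the PSC, AFE and LPO libraries. In FPKM, the authors' level per transcript length and library size, that was 43.27 and 22.61 in DE, where NPPA stood above 90.6% of the genes detected. DE and the other stages did not overlap, and the higher DE library held 1.91 times the level of the other. The mean was 61.8 ± 27.4 CPM in DE and 0 in PSC, at least 189-fold higher (edgeR adjusted p = 1.7e-04). In AFE it fell to 0, at least 312-fold lower than in DE (edgeR adjusted p = 3.4e-04). Because NPPA passed the filter through DE alone, a difference from DE was built into its being tested. From AFE to LPO no change can be given, since both stages were at 0.

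NPPB, the B-type peptide, followed the same course at a lower level. It had 0 FPKM in both PSC libraries, 17.45 and 11.23 FPKM in DE, 0.3 and 0 FPKM in AFE, and 0 and 0.09 FPKM in LPO. Per transcript length, NPPA thus stood 2.48 and 2.01 times above NPPB in the DE libraries. NPPB averaged 17.4 ± 5.32 CPM in DE and 0 in PSC, at least 53.2-fold higher (edgeR adjusted p = 0.0018). NPPB too passed the filter through DE alone, so a difference from DE was built into its being tested. It fell to 0.188 ± 0.265 CPM in AFE, against 17.4 ± 5.32 CPM in DE, a ratio of 92.7 with a 95% counting interval of 40.2 to 241 (log2 change -6.51 with SE 1.18, edgeR adjusted p = 0.00581). All AFE signal came from 23 counts in replicate 1. Without it the fitted log2 change was -12.99 with AFE at 0, without AFE replicate 2 it was -5.53, and the DESeq2 Wald test did not call the fall (adjusted p = 0.148; range over all alternatives 5.8e-06 to 0.148). LPO had 0.0441 ± 0.0623 CPM, and the ratio of AFE to LPO, 4.33 with a 95% counting interval of 0.706 to 40.0, did not pass the test (edgeR adjusted p = 0.285).

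The genes lie next to each other on chromosome 6 of the file, NPPA at 71918845 to 71921405 and NPPB at 71930382 to 71932254, both on the minus strand. The sources used here do not name the genome build. The gap between them is 8976 bases and holds no other gene of the file. Of the 7 other genes within 100 kb, a window chosen after the values were seen, 6 were tested, and all 6 rose in DE against PSC (30.8% of all genes tested did). Their rises were 1.70-fold for the mitochondrial fusion gene MFN2 to 8.32-fold for the collagen-modifying enzyme PLOD1. The MFN2 call ended without DE replicate 2 (log2 change 0.60). In AFE against DE, where both peptide genes fell, CLCN6, KIAA2013, PLOD1 and MFN2 were not called (edgeR adjusted p = 0.121 to 0.778). The chloride transporter gene CLCN6, the nearest neighbour of NPPA, had 42.3 ± 2.77 CPM in DE and 20.6 ± 4.86 CPM in PSC.

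The sarcomere genes took opposite courses up to AFE, and both were lower in LPO than in DE (MYH6 6.91-fold and ACTC1 6.30-fold, edgeR adjusted p = 1.9e-06 and 0.00122). MYH6, the alpha myosin heavy chain of atrial and embryonic heart muscle (chromosome 7, 75676791 to 75704514, plus strand), rose in DE and again in AFE and fell in LPO. Its FPKM was 0.16 and 0.12 in PSC, 2.6 and 2.35 in DE, 5.32 and 5.93 in AFE and 0.48 and 0.5 in LPO. No stages overlapped. MYH6 averaged 20.1 ± 1.43 CPM in DE and 1.14 ± 0.180 CPM in PSC, 17.7-fold higher (log2 change 4.14 with SE 0.169, edgeR adjusted p = 1.0e-06). It averaged 47.3 ± 3.77 CPM in AFE and 20.1 ± 1.43 CPM in DE, 2.35-fold higher (log2 change 1.23 with SE 0.135, edgeR adjusted p = 3.5e-04). LPO fell to 2.91 ± 0.0815 CPM, against 47.3 ± 3.77 CPM in AFE, 16.2-fold lower (log2 change -4.02 with SE 0.153, edgeR adjusted p = 5.1e-07). These calls held in all 17 alternatives.

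MYH6 values carry an uncertainty of identity. Its paralog MYH7, the beta myosin heavy chain of ventricle and slow muscle, lies 3565 bases away, and the sequences of both are close enough for reads to be shared between them. MYH7 had 26.45 and 27.31 FPKM in AFE, above MYH6 in the same libraries, and 0.79 and 0.97 FPKM in DE. It averaged 197 ± 5.08 CPM in AFE and 6.21 ± 0.906 CPM in DE, 31.7-fold higher (edgeR adjusted p = 2.4e-06). In DE, MYH6 was the more abundant of the pair per transcript length. How the authors' counting treated shared reads was not tested. The MYH6 model also overlaps CMTM5 on the opposite strand, whose count over all libraries was 6.92% of that of MYH6.

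ACTC1, the alpha actin of the cardiac sarcomere (chromosome 1, 136281167 to 136286547, plus strand), was highest in PSC and lower at each later stage. It had 4.7 and 5.47 FPKM in PSC, 1.17 and 0.79 in DE, 0.37 and 0.24 in AFE, and 0.15 and 0.27 in LPO. In CPM the stages did not overlap, while by FPKM the AFE and LPO libraries did. ACTC1 averaged 1.74 ± 0.476 CPM in DE and 8.68 ± 1.09 CPM in PSC, 4.99-fold lower (log2 change -2.32 with SE 0.422, edgeR adjusted p = 0.00218). AFE had 0.551 ± 0.167 CPM and DE 1.74 ± 0.476 CPM, 3.15-fold lower (log2 change -1.65 with SE 0.432, edgeR adjusted p = 0.0204). This call ended without DE replicate 1 (log2 change -1.34, adjusted p = 0.0805) or AFE replicate 2 (-1.37, adjusted p = 0.113), and its adjusted p ranged from 0.00292 to 0.113 over the alternatives. LPO (0.276 ± 0.108 CPM) and AFE were not told apart (edgeR adjusted p = 0.0935). Relative to ACTC1, MYH6 stood at 14.4 and 24.7 times in AFE libraries by FPKM, and at 0.0340 and 0.0219 times in PSC libraries.

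Among the heart factors, TBX20, a T-box factor that keeps heart chambers growing (chromosome 18, 38635617 to 38678133, plus strand), was near 0 outside DE. It had 0 FPKM in both PSC libraries, 4.08 and 3.91 in DE, 0.05 and 0.06 in AFE, and 0.09 and 0.12 in LPO. The DE libraries agreed within 1.04 times in CPM. The mean was 12.8 ± 0.375 CPM in DE and 0 in PSC, at least 39.2-fold higher (edgeR adjusted p = 9.7e-06). It fell to 0.190 ± 0.0145 CPM in AFE, against 12.8 ± 0.375 CPM in DE, a ratio of 67.5 with a 95% counting interval of 29.5 to 178 (log2 change -6.06 with SE 0.386, edgeR adjusted p = 5.6e-05). LPO, at 0.263 ± 0.0549 CPM, was not told apart from AFE (edgeR adjusted p = 0.325). LPO was called higher than PSC (edgeR adjusted p = 5.7e-04), yet its mean lies below the floor of the shallower PSC libraries, so no fold can be given. That call ended with limma on log2(FPKM + 1) (log2 change 0.14, adjusted p = 0.0933; range over the alternatives 3.4e-04 to 0.0933).

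NKX2-5, the homeobox factor that marks early heart progenitors (chromosome 16, 51086011 to 51089162, plus strand), had 0.27 and 0.16 FPKM in PSC, 3.78 and 6.54 in DE, 0.73 and 1.05 in AFE, and 0.38 and 0.29 in LPO. It averaged 9.70 ± 3.67 CPM in DE and 0.397 ± 0.141 CPM in PSC, 24.5-fold higher (log2 change 4.59 with SE 0.488, edgeR adjusted p = 1.1e-04). AFE fell to 1.74 ± 0.446 CPM, against 9.70 ± 3.67 CPM in DE, 5.59-fold lower (log2 change -2.48 with SE 0.424, edgeR adjusted p = 0.00297). LPO fell further to 0.463 ± 0.0855 CPM, against 1.74 ± 0.446 CPM in AFE, 3.75-fold lower (log2 change -1.90 with SE 0.435, edgeR adjusted p = 0.00606, up to 0.05 over the alternatives). LPO and PSC overlapped and were not told apart (edgeR adjusted p = 0.713). So AFE held an intermediate level between DE and the pair of end stages.

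HAND1 and HAND2, related basic helix-loop-helix factors of heart and lateral mesoderm, parted after AFE. HAND1 (chromosome 16, 68677963 to 68683342, plus strand) had 0 and 0.02 FPKM in PSC, 8.55 and 4.44 in DE, 0.68 and 0.5 in AFE, and 0.55 and 0.52 in LPO. The PSC signal was 4 counts in replicate 2, or about 1 read pair. HAND1 averaged 28.4 ± 12.7 CPM in DE and 0.0594 ± 0.0840 CPM in PSC, a ratio of 526 with a 95% counting interval of 94.3 to 20828 (edgeR adjusted p = 2.1e-05). The fitted log2 change was 8.97, and 7.88 without PSC replicate 1. Without PSC replicate 2 PSC was at 0. The same read pair sets the ratios to PSC in the later stages, 49.3 in AFE (interval 8.62 to 1976) and 31.7 in LPO (5.47 to 1263). It fell to 2.66 ± 0.555 CPM in AFE, against 28.4 ± 12.7 CPM in DE, 10.7-fold lower (log2 change -3.42 with SE 0.442, edgeR adjusted p = 7.8e-04). LPO, at 1.72 ± 0.0594 CPM, was not told apart from AFE (edgeR adjusted p = 0.236).

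HAND2 (chromosome 14, 16459971 to 16462207, plus strand) had 0 FPKM in both PSC libraries, 4.95 and 2.27 in DE, 0.57 and 1.09 in AFE, and 4.92 and 5.81 in LPO. It averaged 3.48 ± 1.83 CPM in DE and 0 in PSC, at least 10.6-fold higher (edgeR adjusted p = 2.8e-04). Without DE replicate 1 the DE level was 2.19 CPM and the call remained (adjusted p = 9.5e-04). AFE had 0.844 ± 0.363 CPM, 4.13-fold lower than DE (log2 change -2.04 with SE 0.554, edgeR adjusted p = 0.0289). That fall is weakly supported: its adjusted p ranged from 0.00518 to 0.139 over the alternatives and passed 0.05 without DE replicate 1 (log2 change -1.37, adjusted p = 0.131), AFE replicate 1 (-1.66, 0.139), AFE replicate 2 (-2.56, 0.0538), LPO replicate 1 (-2.05, 0.0551) or LPO replicate 2 (-2.05, 0.0588), and with the replicate number as a block (-2.04, 0.0547). LPO had 3.81 ± 0.451 CPM and AFE 0.844 ± 0.363 CPM, 4.51-fold higher (log2 change 2.17 with SE 0.555, edgeR adjusted p = 0.0132). This rise was not called without AFE replicate 1 (log2 change 1.79, adjusted p = 0.0737) or LPO replicate 2 (2.03, 0.0612), within a range of 3.4e-04 to 0.0737. By FPKM, HAND1 stood at 0.112 and 0.0895 times HAND2 in LPO and at 1.73 and 1.96 times HAND2 in DE.

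MEF2C, a MADS-box factor of muscle and vessel (chromosome 2, 96124168 to 96296810, minus strand), was high at DE and LPO and low between them. It had 0.05 and 0.03 FPKM in PSC, 2.09 and 1.6 in DE, 0.23 and 0.21 in AFE, and 2.87 and 3.25 in LPO. It averaged 11.0 ± 2.04 CPM in DE and 0.238 ± 0.0844 CPM in PSC, a ratio of 46.1 with a 95% counting interval of 19.7 to 188 (log2 change 5.49 with SE 0.322, edgeR adjusted p = 5.1e-06). AFE fell to 1.34 ± 0.0614 CPM, against 11.0 ± 2.04 CPM in DE, 8.17-fold lower (log2 change -3.03 with SE 0.258, edgeR adjusted p = 9.5e-05). LPO rose to 13.4 ± 1.21 CPM, against 1.34 ± 0.0614 CPM in AFE, 9.95-fold higher (log2 change 3.31 with SE 0.260, edgeR adjusted p = 1.5e-05). LPO and DE were not told apart (log2 change 0.28 with SE 0.232, edgeR adjusted p = 0.315). On log2(FPKM + 1) LPO was called above DE (0.52, adjusted p = 0.0022), on a scale where the median gene shifted by 0.42 in the same direction. The adjusted p of this pair ranged from 0.0022 to 0.734.

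**Figure D2:**
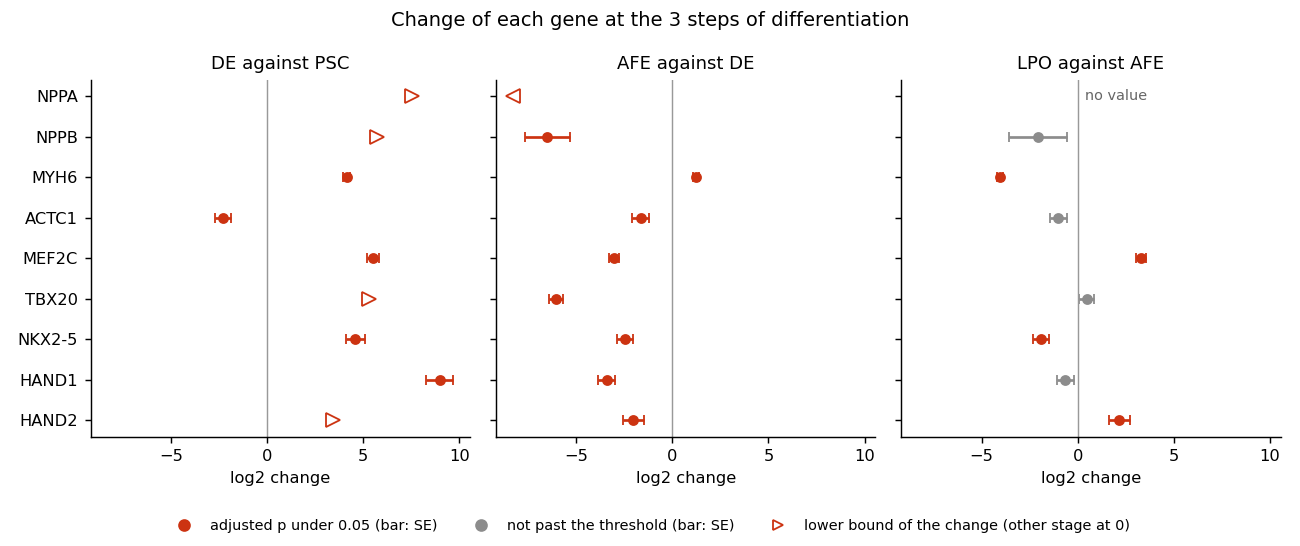
Change of each of the 9 genes at the 3 steps, as log2 of the first stage over the second (x axis), by gene (y axis). Filled points are fitted changes with their SE, red past an edgeR adjusted p of 0.05 and grey otherwise, and open triangles are lower bounds where a stage was at 0. MYH6 alone lies right of 0 in AFE against DE, and MEF2C and HAND2 are the called rises in LPO against AFE.

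By comparison, 8 of the 9 genes rose and 1, ACTC1, fell in DE against PSC, where 53.8% of all genes tested were called, 30.8% as rises and 23% as falls. In AFE against DE, 1 rose (MYH6) and 8 fell, where 35.3% of all genes were called, 17.9% as rises and 17.4% as falls. Without AFE replicate 2 the number of all genes called at this step dropped to 4535, against 6838 with all libraries. In LPO against AFE, 2 rose (MEF2C and HAND2), 2 fell (MYH6 and NKX2-5) and 5 were not called, where 59.8% of all genes were called, 30.2% as rises and 29.6% as falls. In LPO against PSC, 5 rose (MYH6, MEF2C, TBX20, HAND1 and HAND2) and ACTC1 fell, where 70.3% of all genes were called, 41.5% as rises and 28.8% as falls. In AFE against PSC, 6 were called higher (those 5 and NKX2-5) and ACTC1 fell, with TBX20 again below the PSC floor in AFE and so without a fold, where 56.8% of all genes were called, 32.8% as rises and 24% as falls. In LPO against DE, 7 fell, MEF2C and HAND2 were not called and 0 rose, also at an unadjusted p under 0.05 in edgeR, where 62.7% of all genes were called, 31.6% as rises and 31.1% as falls. MEF2C was called there by limma on FPKM alone. These comparisons share libraries, and a gene that was 0 outside DE had to differ from it to be tested, so the counts describe the 9 genes only.

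The DE libraries differed from each other unevenly over these genes. NPPA, NPPB, HAND1 and HAND2 were 1.91, 1.55, 1.92 and 2.18 times higher in DE replicate 1 than in replicate 2, whereas NKX2-5 was 1.73 times higher in replicate 2. TBX20 and MYH6 differed by 1.04 and 1.11 times. Over the 16680 genes above 0 in both DE libraries, the median ratio of the higher to the lower was 1.16, and 89.9% lay within 2-fold. Apart from NPPA and NPPB, no call of the 9 genes in DE against PSC depended on either DE library. NPPA and NPPB passed the filter through DE alone, so their difference from PSC was built in.

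The counts of the related lists below stand beside the shares of all genes tested. In DE against PSC 30.8% rose and 23% fell. The shares were 17.9% and 17.4% in AFE against DE, and 30.2% and 29.6% in LPO against AFE. Other genes of the natriuretic system were present on different schedules. Of 8 such genes, 5 rose and 2 fell in DE against PSC (median log2 change 3.20, against 0.08 over all genes tested), with 1 fall without DE replicate 1. NPR1, the receptor for both peptides, had 43.2 ± 0.175 CPM in DE and 4.38 ± 1.42 CPM in PSC, 9.87-fold higher (edgeR adjusted p = 5.9e-06). MME, the peptidase neprilysin that degrades the peptides, had 98.1 ± 4.23 CPM in DE and 0.877 ± 0.398 CPM in PSC, 112-fold higher (edgeR adjusted p = 2.1e-06). FURIN, the protease that cuts the B-type precursor, rose 8.45-fold (edgeR adjusted p = 7.1e-07), and its relative PCSK6 rose 10.1-fold (edgeR adjusted p = 2.8e-05). In contrast CORIN, the protease that matures the A-type precursor, had 0.313 ± 0.145 CPM in DE and 1.45 ± 0.370 CPM in PSC, 4.64-fold lower (edgeR adjusted p = 0.0012). CORIN was thus low at the stage where NPPA was detected.

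In AFE against DE 4 genes of this list rose and 3 fell (median log2 change 0.05, against 0 over all genes). The rises numbered 1 to 4 when single libraries were left out, with 1 without AFE replicate 2 and 2 without AFE replicate 1 or DE replicate 2. The falls were FURIN (3.77-fold), MME (11.1-fold) and PCSK6 (3.27-fold), with edgeR adjusted p from 1.2e-05 to 0.0014. The clearance receptor NPR3 rose to 6.01 ± 1.87 CPM in AFE, against 0.0701 ± 0.0991 CPM in DE (ratio 86.5, 95% counting interval 23.5 to 717, edgeR adjusted p = 0.00662). Its log2 change of 6.39 was 5.40 without DE replicate 1, and DE was at 0 without DE replicate 2. NPPC, the C-type peptide, had 3.12 and 2.97 CPM in AFE, against 0 and 0.263 CPM in DE. Its call (edgeR adjusted p = 0.033) ended without any single AFE or LPO library (adjusted p up to 0.112). In LPO against AFE 2 genes rose, CORIN by 22.9-fold to 21.2 ± 1.36 CPM and the C-type receptor NPR2 by 5.45-fold to 43.4 ± 0.803 CPM (edgeR adjusted p = 1.1e-05 and 3.8e-05). NPR1 fell to 4.70 ± 0.323 CPM in LPO, against 69.0 ± 1.62 CPM in AFE, 14.7-fold lower (edgeR adjusted p = 1.7e-06). The rises numbered 4 with limma. NPR1 was the single fall of 8 genes, with 3 falls when counts were divided by 4 and 2 with limma, and 1 to 2 genes fell when single libraries were left out (2 without either PSC library, either DE library, AFE replicate 2 or LPO replicate 1).

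**Figure D3:**
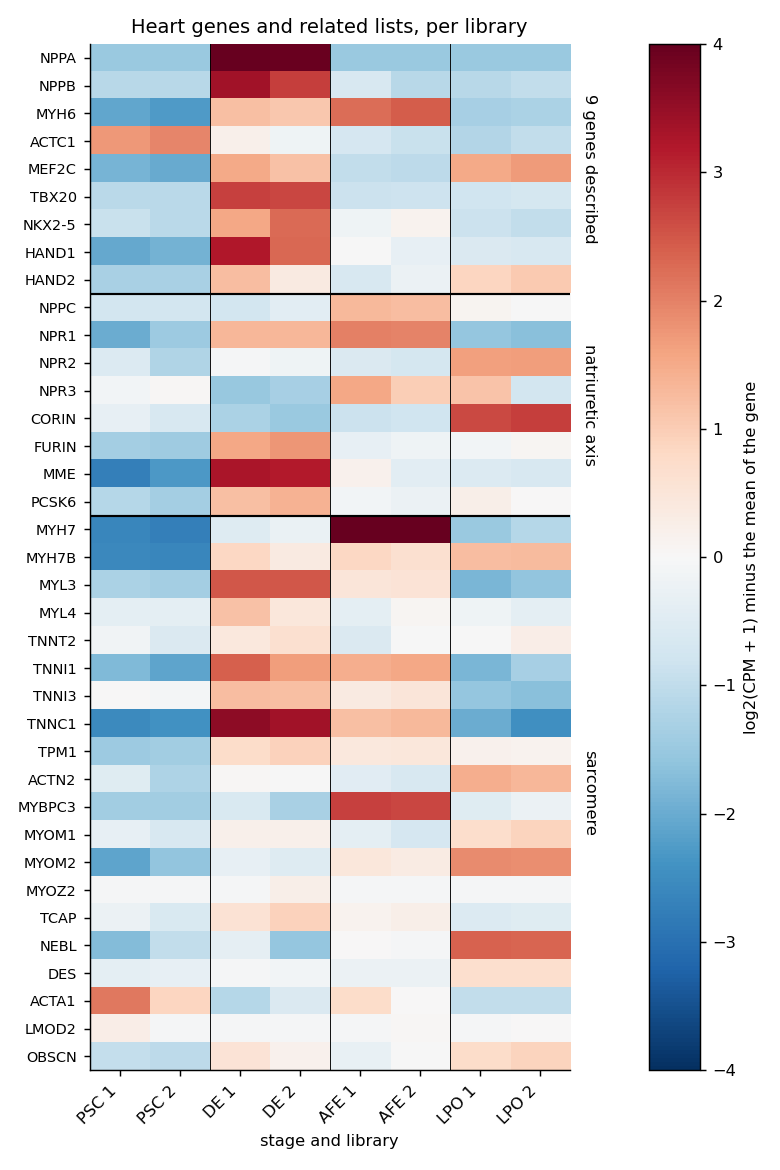
Level of the 9 genes and of the natriuretic and sarcomere lists in each library (x axis), as log2(CPM + 1) minus the mean of the gene over the 8 libraries (colour, red above and blue below that mean). Genes run down the y axis, the 9 genes described first. MYH6, MYH7 and MYBPC3 are reddest in AFE, TNNC1 and MYL3 in DE, and NEBL and CORIN in LPO.

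Sarcomere genes did not move as a block. Of 25 on the list, 20 were matched in the file and 18 tested. The myosin light chains MYL2 and MYL7 and titin (TTN) were among those not analysed here. In DE against PSC 13 rose and 1 fell (median log2 change 2.47, against 0.08 over all genes). Fewer rises were called whenever a single library was left out. TNNC1, the calcium-binding troponin of heart and slow muscle, had 212 ± 22.7 CPM in DE and 2.42 ± 0.193 CPM in PSC, 87.7-fold higher (edgeR adjusted p = 6.5e-07). The light chain MYL3 rose 23.8-fold (edgeR adjusted p = 3.2e-06) and tropomyosin TPM1 4.82-fold (edgeR adjusted p = 6.0e-07). MYH7B, a myosin heavy chain, rose 11.1-fold (edgeR adjusted p = 3.1e-06) but overlaps TRPC4AP on the opposite strand, which holds 214% of its count, so its value is uncertain. TNNT2, the cardiac troponin T used to mark heart muscle cells, was low at every stage, with 1.15 ± 0.232 CPM in DE and 0.174 ± 0.246 CPM in PSC, and was not called at any step (edgeR adjusted p = 0.239 to 0.504).

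In AFE against DE 3 sarcomere genes rose, 6 fell and 9 were not called (median log2 change -0.58, against 0 over all genes). Beside MYH7, MYBPC3, the myosin-binding protein of heart muscle named after its values were seen, had 16.3 and 15.8 CPM in AFE, against 0.709 and 0.0526 CPM in DE (42.2-fold higher, edgeR adjusted p = 0.00361). Its log2 change of 5.39 was 8.20 without DE replicate 1 and 4.49 without DE replicate 2. The third rise was ACTA1, the skeletal alpha actin, with 2.59 ± 1.26 CPM in AFE and 0.498 ± 0.411 CPM in DE (edgeR adjusted p = 0.0407). The rises numbered 2 without either AFE library or either LPO library. TNNC1 fell to 44.2 ± 2.26 CPM in AFE, against 212 ± 22.7 CPM in DE (4.80-fold, edgeR adjusted p = 6.2e-05), and MYL3 fell 4.28-fold (edgeR adjusted p = 2.0e-04). TNNI3, cardiac troponin I, fell 1.75-fold (edgeR adjusted p = 3.3e-04), but overlaps DNAAF3 on the same strand, whose count is 34.2% of its own. In LPO against AFE 7 rose and 9 fell (median log2 change -0.72, against 0.09). MYH7 fell 70.0-fold to 2.81 ± 0.621 CPM (edgeR adjusted p = 2.8e-07), TNNC1 14.1-fold and MYL3 9.54-fold (edgeR adjusted p = 1.8e-06 and 8.6e-06). The rises numbered 4 without AFE replicate 2, LPO replicate 1 or LPO replicate 2, against 7. The falls numbered 6 to 9 when single libraries were left out.

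Of 25 other heart and lateral mesoderm factors tested, 16 rose and none fell in DE against PSC (median log2 change 3.31, against 0.08 over all genes; edgeR, with 0 falls also at an unadjusted p under 0.05 and by the DESeq2 Wald test). There was 1 fall without DE replicate 1, with limma and with counts divided by 4. GATA4, partner of NKX2-5 and TBX20 in heart and a factor of endoderm, had 507 ± 16.0 CPM in DE and 0.565 ± 0.378 CPM in PSC. TBX3, a T-box factor of the conduction system, had 78.6 ± 7.48 CPM in DE and 0.233 ± 0.162 CPM in PSC (edgeR adjusted p = 4.6e-07). With all libraries 9 of the 25 were not called at this step. TBX5 and TBX18, named after their values were seen, were at 0 in both DE libraries. Their means in LPO were 8.59 and 2.17 CPM. In AFE against DE 9 fell and 3 rose (median log2 change -0.25, against 0). GATA4 fell 10.1-fold to 50.3 ± 2.59 CPM and TBX3 7.76-fold to 10.1 ± 1.13 CPM (edgeR adjusted p = 1.1e-05 and 1.8e-05). HEY2, a Notch effector of ventricle, fell 13.7-fold (edgeR adjusted p = 3.7e-05). The rises numbered 1 without AFE replicate 1. In LPO against AFE 14 rose and 4 fell (median log2 change 1.89, against 0.09). Leaving out single libraries moved the number of these rises both up and down. MEF2A and MEF2D, relatives of MEF2C, rose 3.71-fold and 3.39-fold (edgeR adjusted p = 4.4e-06 and 1.7e-06), and TBX3 rose 6.03-fold (edgeR adjusted p = 6.9e-06). GATA5, which acts in heart and gut endoderm, fell 5.66-fold to 7.81 ± 0.256 CPM (edgeR adjusted p = 5.0e-06).

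Of 16 genes of calcium handling and conduction tested, 6 rose and 2 fell in DE against PSC (median log2 change 0.90, against 0.08). Of all genes tested, 30.8% rose and 23% fell at that step. In AFE against DE 2 of the 16 rose and 5 fell (-0.49, against 0), where 17.9% and 17.4% of all genes did. In LPO against AFE 5 rose and 3 fell (0.59, against 0.09), where 30.2% and 29.6% of all genes did. Leaving out single libraries gave 4 to 7 and 0 to 3, 1 to 3 and 3 to 6, and 4 to 6 and 1 to 3. In DE against PSC the falls were 0 without PSC replicate 2 or DE replicate 1 and 1 without DE replicate 2. In AFE against DE the rises were 1 without either DE library or AFE replicate 1, and the falls 3 without either DE library or AFE replicate 2. In LPO against AFE the falls were 1 without LPO replicate 1. RYR2, the calcium release channel of heart muscle, had 4.40 ± 0.0580 CPM in DE and 1.69 ± 0.177 CPM in PSC (edgeR adjusted p = 0.00485). It fell to 0.923 ± 0.0794 CPM in AFE, against 4.40 ± 0.0580 CPM in DE (edgeR adjusted p = 9.4e-04). In LPO it rose again to 4.80 ± 0.103 CPM, 5.20-fold above AFE (edgeR adjusted p = 2.4e-04). GJA1, the gap junction protein connexin 43, had 85.1 ± 14.1 CPM in DE and 13.6 ± 1.46 CPM in PSC, 6.25-fold higher (edgeR adjusted p = 2.9e-06). GJA1 fell to 52.1 ± 2.29 CPM in AFE and rose to 132 ± 2.42 CPM in LPO, its highest mean (edgeR adjusted p = 0.00359 and 4.2e-05).

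Markers of other cells that share these genes were measured beside them. Of 8 smooth muscle markers, all in the file, the summed level was 96.8 and 102 CPM in PSC, 246 and 259 in DE, 328 and 349 in AFE, and 313 and 321 in LPO. TAGLN was the largest part of it (39.5 CPM in PSC and 114 CPM in DE). In DE against PSC 6 of the 8 rose and 1 fell. The means of MYLK (0.340 and 1.35 CPM) and MYH11 (1.37 and 2.54 CPM) were lower in DE than in PSC. Of 10 skeletal muscle markers 7 were matched, summing to at most 12.1 CPM in any library. That highest sum was in PSC replicate 1, where ACTA1 had 10.5 CPM. In AFE against DE 2 of the 5 tested were called higher and 3 were not called, where 17.9% of all genes tested rose. MYH3 had a mean of 6.24 CPM in AFE and 1.36 CPM in DE. Both DE libraries had MYF5 at 0, and MYOG was at 0.104 ± 0.147 CPM there. The 6 endothelial markers summed to 30.9 and 34.9 CPM in DE and to 16.3 and 18.3 CPM in PSC, where CDH5, TEK, ERG and VWF were at 0. TIE1 carried most of both sums, with 20.5 CPM in DE and 15.0 CPM in PSC. The 6 markers of primitive and extraembryonic endoderm summed to 13827 and 14095 CPM in DE, most of it APOA1 and with TTR at 0, against 30.7 and 33.5 CPM in PSC. HNF4A (294 CPM), SOX17 (239 CPM) and GATA6 (124 CPM) also had higher means in DE than in PSC. APOB did not (0.227 CPM in DE and 0.332 CPM in PSC). The 6 trophoblast markers summed to 250.4 and 298 CPM in DE, against 23.9 and 25.2 CPM in PSC. GATA3 (202 CPM) and KRT7 (52.0 CPM) carried most of the DE sum, while TFAP2C had 0.971 CPM in DE and 4.36 CPM in PSC. In AFE and LPO the endothelial sums were 23.0 to 25.7 CPM, the extraembryonic endoderm sums 368 and 386 CPM in AFE and 134 and 147 CPM in LPO, and the trophoblast sums 153 to 179 CPM. ACTA1 and DES also stand in the sarcomere list, and GATA6 in the factor list. SOX17 and GATA6 are also among the stage markers of DE. The part of any such cells in the levels of the 9 genes was not tested, and in bulk libraries fewer cells of a type and less RNA per cell cannot be told apart.

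The genes whose course over the 8 libraries lay closest to each of the 9, by the root mean square difference of log2 CPM centred per gene, came from many roles. For NPPA they were the apolipoprotein APOC3 (0.86), the amino acid transporter SLC7A9 (1.60) and the citrate transporter SLC13A5 (1.63), and for NPPB TIMD4, ARPP21 and the apolipoprotein APOA1 (1.05 to 1.19). MYH6 was nearest to the small heat shock protein HSPB1 (0.37), PPP1R14A, an inhibitor of myosin phosphatase (0.46), and SLC13A4 (0.48), and ACTC1 to KCNMB4, TTLL6 and CNNM1 (0.33 to 0.43). HAND1 was nearest to the inhibitory SMAD6, GATA4 and AGMAT (0.77 to 0.78), and TBX20 to the myelin gene PMP22, RELN and PDZK1 (0.57 to 0.71). NKX2-5 was nearest to LRFN2, TM4SF5 and RAB37 (0.33 to 0.44), HAND2 to CYP2C42, CABP1 and PHLDA2 (0.37 to 0.50), and MEF2C to CDH10, DAGLA and ELF4 (0.35 to 0.39). None of the 9 genes was among the 3 nearest of another.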

How the data were processed

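The submitters' processing notes list DESeq2, edgeR, StringTie 2.1.6, HISAT2 2.2.1 and cutadapt 1.9 without saying what each did, and name no genome build. The authors deposited an estimated count per gene and library (an expected count, in whole numbers, not scaled between libraries) and an FPKM value, which is scaled to transcript length and library size. The labels' protocols describe poly(A) RNA, dUTP strand marking and paired reads. Column names EPSC and Organoid were matched to PSC and LPO through the sample labels. The file supplied the symbols, 130 more were looked up by gene ID, and 10013 genes stayed without a symbol. No sequences are shown.

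Calculations used R 4.3.3, edgeR 4.0.16, limma 3.58.1, DESeq2 1.42.0, Python 3.11.15 and matplotlib 3.10.9. Of 25578 genes, 19346 passed filterByExpr. Counts were scaled with TMM (factors 0.901 to 1.27), and a quasi-likelihood model with 1 mean per stage was fitted to all 8 libraries (4 residual degrees of freedom). The 6 pairs of stages were tested, with Benjamini-Hochberg adjustment over all genes and a threshold of 0.05. Folds are ratios of mean CPM. Bounds use 12 counts per library, and bounds and 95% counting intervals (exact, on read pairs) cover counting error only. With 2 libraries on each side, the smallest p of an exact permutation test is 0.333. The script was tested on simulated data. Some genes that the naming rule picked are not reported here. The 9 genes and the related lists were chosen with earlier results of these data known. Named besides the 9 genes are up to 4 called genes per list and step with the smallest adjusted p, genes named as picked later, TNNT2, NPPC and repeated genes, and the 3 nearest courses per gene. Groups follow the sample titles.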

Additional observations from a re-analysis of the deposited data

How the results depend on the processing

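Each change of the 9 genes was recomputed without a filter, with a filter of 1 FPKM in 2 libraries, with counts divided by 4, with DESeq2 (its size factors, then its Wald test), with limma (FPKM plus 1 or 0.1, as log2), the 4 libraries compared alone, a replicate block, and without each library. Of 861 such values 839 kept direction and side of the threshold, 14 lost the call, 3 gained it and 5 turned. The cause was not tested. Those that turned were never called: NPPB in LPO against AFE without AFE replicate 1 (leave-one-out range -6.41 to 4.43), NKX2-5 in LPO against PSC without PSC replicate 2 (-0.10) or LPO replicate 1 (-0.04; range -0.10 to 0.64), and HAND2 in LPO against DE without DE replicate 2 (-0.30) or LPO replicate 2 (-0.02; range -0.30 to 0.80). The neighbour gene MFN2 also turned in AFE against DE without DE replicate 2 (0.048) or AFE replicate 1 (0.01; range -0.21 to 0.048). Lost or gained calls not given with the genes were MEF2C (0.23) and TBX20 (0.08) in AFE against PSC on log2(FPKM + 1), MEF2C in LPO against DE on log2(FPKM + 0.1) (0.71), and NPPB in AFE against PSC without AFE replicate 2 (7.47). Called genes in AFE against DE numbered 4535 to 7894 when single libraries were left out, and called members 7 to 9. With DESeq2 size factors the median gene shifted by -0.16 in DE against PSC, and on log2(FPKM + 1) by 0.45 in LPO against AFE. The replicate number is only a number in the labels: same-numbered deviations correlated at -0.0136 to 0.0078 across genes, and the replicate block ended 1 call of the 9 genes, HAND2 in AFE against DE (-2.04, adjusted p = 0.0547, range 0.00518 to 0.139). The related genes and lists were recomputed in the same ways, an addition made after the data were seen. At this depth a gene at 0 in a library may have had a level of up to 0.150 to 0.357 CPM.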
